A study of Homo sapiens with 8 samples.

Results

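The genes of the proteasome were followed in Caco-2/15 cells, a human colon cancer line that takes on enterocyte-like features after its cultures become confluent. Members were all protein-coding rows of the count tables whose symbol begins with PSMA to PSMG followed by a digit. This rule uses names and no measured value. It matched 101 of the 58302 gene IDs, and 50 of these were protein-coding. Of the 50, 48 encode proteasome subunits or factors that assemble, activate or inhibit the proteasome. The other 2, PSMC3IP (a meiotic recombination cofactor) and PSME3IP1 (a protein that binds PSME3), are named after a subunit but are not subunits, and are counted apart. Of the 51 rows that were not protein-coding, 44 were pseudogenes, which held 0.122 to 0.257% as many counts as the members in each library.

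The proteasome degrades proteins that carry ubiquitin chains. Its barrel, the 20S core, is built of outer rings of alpha subunits (PSMA) and inner rings of beta subunits (PSMB), of which PSMB5, PSMB6 and PSMB7 cut peptide bonds. The 19S cap sits on the barrel and consists of ATPases (PSMC) that unfold the substrate and non-ATPase subunits (PSMD) that bind ubiquitin, remove it and hold the cap together. Interferon induces PSMB8, PSMB9 and PSMB10, which take the places of PSMB5, PSMB6 and PSMB7 in the immunoproteasome and favour peptides that MHC class I presents. Other activators (PSME) can replace the cap, PSMF1 binds the core as an inhibitor, and PSMG proteins guide assembly of the core.

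The study compared 2 lines made by genome editing, each heterozygous for a Flag epitope tag on a gene of the histone variant H2A.Z. In Z1flag cells the tagged gene is H2AFZ, for H2A.Z.1, and in Z2flag cells H2AFV, for H2A.Z.2, so all groups share a tagged H2A.Z gene and no untagged line was analysed here. Cells were collected while subconfluent or 7 days postconfluent, which gives 4 groups of 2 libraries. The labels call the pairs experiments 1 and 2, written here as replicates 1 and 2, and do not say whether they were separate cultures, so p-values measure only the spread between these libraries. The sources used here do not say whether each line is 1 clone. Levels are CPM (a gene's counts relative to a fixed library total, scaled by the trimmed mean of M values), in the order replicate 1, replicate 2. The log2 fold changes, postconfluent against subconfluent, came from 1 edgeR quasi-likelihood fit over all 8 libraries, and a change was called at a Benjamini-Hochberg adjusted p below 0.05 over 18240 genes tested. Errors of fold changes are standard errors.

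Depth ran from 17063826 to 40881682 gene counts per library. Of 16 epithelial and enterocyte markers, EPCAM (439 to 831 CPM), VIL1 (418 to 646 CPM) and CDX2 (34 to 99 CPM) were among those present in all libraries, while CDX1 (at most 0.189 CPM), LGALS4 (at most 1.1 CPM), KRT20 (at most 1.38 CPM) and SI (at most 6.20 CPM) were low or at 0. KRT8 and KRT18, keratins of simple epithelia, were the 2 markers called lower after confluence (log2 change -1.56 and -1.94). Reads outside annotated features made up 20.6 to 32.0% of reads, and their share was highest in replicate 1 of subconfluent (32.0%) and postconfluent (31.4%) Z1flag cells. Reads assigned to more than 1 gene were 5.39 to 5.69% before and 6.17 to 7.86% after confluence, and reads aligned to several places 6.59 to 6.89% and 7.84 to 10.3%. Postconfluent Z1flag replicate 1 and postconfluent Z2flag replicate 1 lay at opposite ends of the second principal component of all genes (-73.9 and 55.7). Results of members that rest on these libraries are given below with and without them.

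Proteasome genes took up a smaller share of the transcriptome after confluence. The 50 members made up 0.553 and 0.619% of gene counts in subconfluent Z1flag cells and 0.578 and 0.631% in subconfluent Z2flag cells. After confluence the shares were 0.297 and 0.367% in Z1flag cells and 0.384 and 0.350% in Z2flag cells, so that the states did not overlap. The same holds for the summed level of the 48 proteasome genes, which was 5478, 6031, 5530 and 6234 CPM before and 2714, 3663, 4082 and 3535 CPM after confluence. In bulk RNA, fewer cells with these transcripts and less of them per cell cannot be told apart.

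Of the 48 proteasome genes, 45 passed the filter on low counts. As a mean of both lines, 31 of the 45 were called lower after confluence, where 27.5% of all genes tested were called lower. Only 3 were called higher (PSMB9, PSMB10 and PSMD9), where 27.8% of all genes were, and 11 were not called. The median log2 fold change was -0.75, beside -0.01 over all genes tested. At 2-fold or more, 12 were called lower (13.1% of all genes tested): 8 of 17 cap subunits, the core subunits PSMA4 and PSMB6, the activator PSME3 and the assembly chaperone PSMG1. With upper-quartile scaling, which puts the median of all genes at 0.18, the split was 4 higher and 27 lower among the 45, and 6248 higher and 3822 lower among all genes (5076 and 5021 in the scaling used here). The median of the 45 relative to all genes was -0.74 under both. Of the 31 lower calls, 26 held in each of 17 alternative fits. The other 5 (PSMA2, PSMA5, PSMD8, PSME2 and PSME4) are taken up with their genes.

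**Figure D1:**
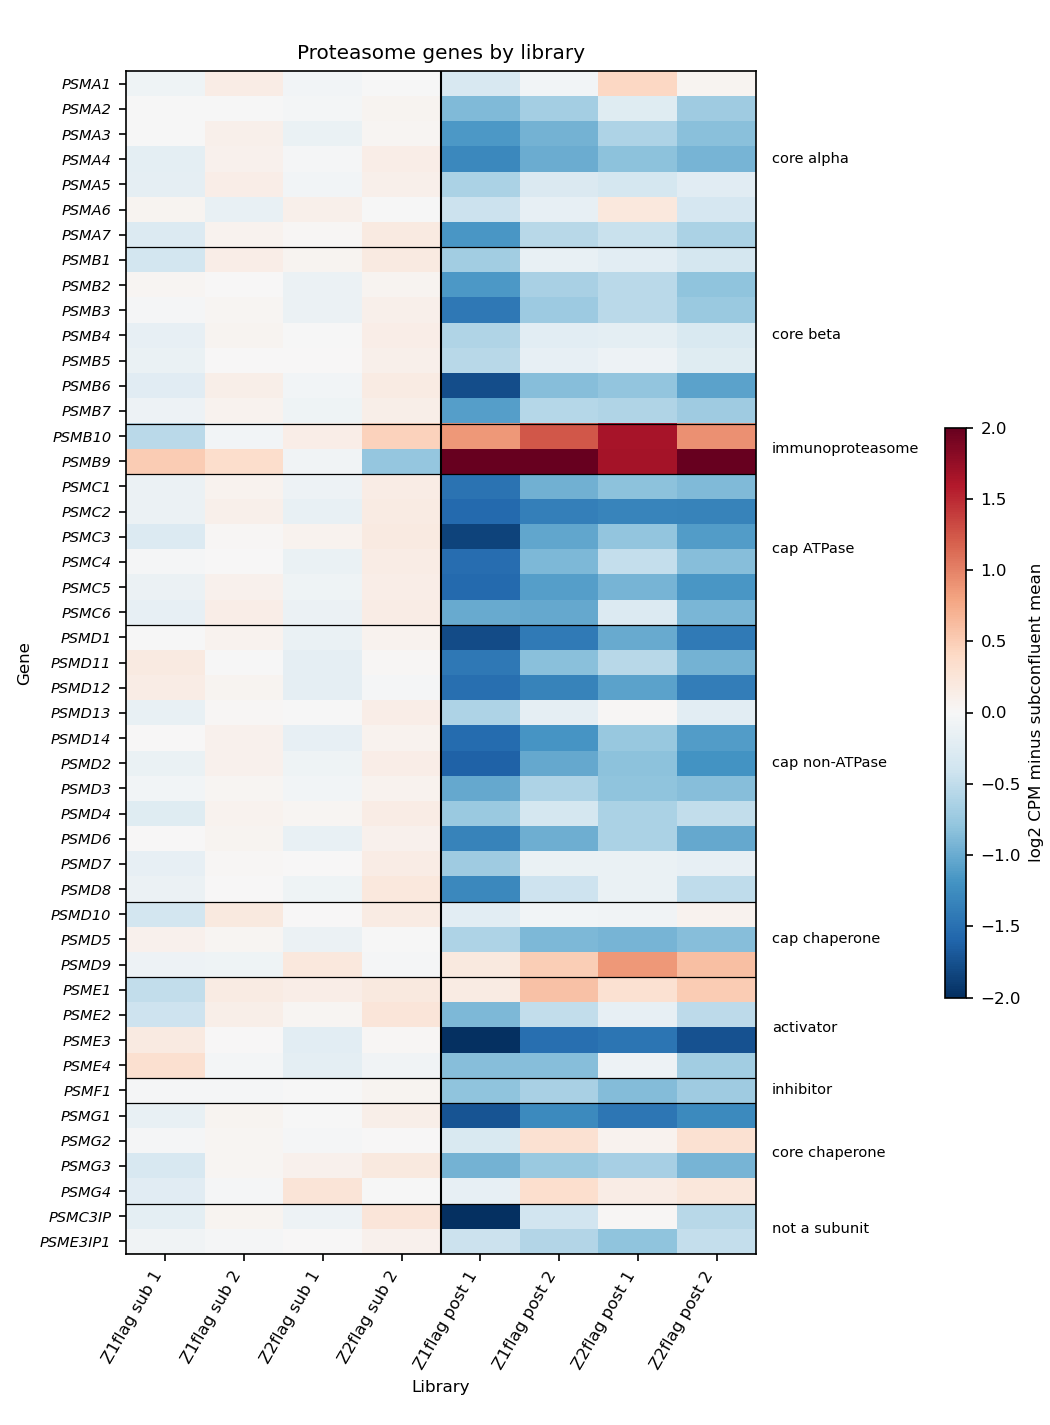
Colour gives the log2 CPM of each member that passed the filter (rows, ordered by role) minus its mean over the 4 subconfluent libraries, for all 8 libraries (columns; sub is subconfluent, post is postconfluent; the scale stops at -2 and 2). Most core and cap rows are blue in all 4 postconfluent columns, most deeply in Z1flag post 1, while PSMB9 and PSMB10 are red.

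The 4 postconfluent and 4 subconfluent libraries did not overlap in 30 of the 45 genes with the lower levels after confluence, against 26.1% of all genes tested, and in 2 (PSMB9 and PSMB10) with the higher levels, against 25.1%. The remaining 13 overlapped. The depth of the fall differed between libraries of the same state. Taking the 31 core and cap subunits together, the median deviation from the subconfluent mean (log2) was -1.17 and -0.73 in postconfluent Z1flag cells and -0.55 and -0.83 in postconfluent Z2flag cells, while the median of all genes lay at 0.05, -0.02, -0.06 and -0.02. Postconfluent Z1flag replicate 1 was the lowest of the postconfluent libraries for 30 of these 31 genes, and postconfluent Z2flag replicate 1 the highest for 26. How many of all genes tested had this order was not counted. These libraries lay at opposite ends of the second principal component of all genes, so the order is not shown to be particular to the proteasome. Calls and medians without the lowest library follow. Without postconfluent Z1flag replicate 1 the median log2 change of the proteasome genes was -0.60. Leaving out both Z1flag libraries of highest no-feature share gave 27 lower calls and a median of -0.62.

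**Figure D2:**
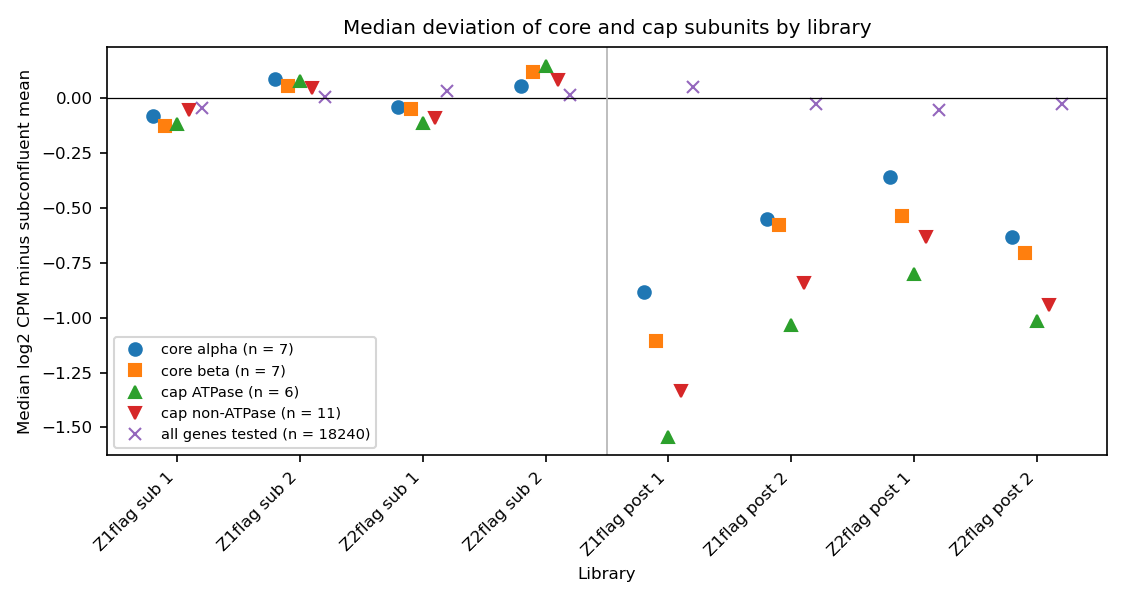
Each symbol is the median over the tested members of a class of log2 CPM minus the subconfluent mean, in each library, with all genes tested as crosses. After confluence the core rings lie between -1.11 and -0.36 and the cap classes between -1.54 and -0.63, while all genes stay within 0.06 of 0.

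The alpha rings of the core hold the gate through which substrates enter. The testis form PSMA8 had 1 count in all libraries and was not tested. Of the other 7 PSMA genes, 5 were called lower and none higher, with a median log2 change of -0.62. The lowest values among the 7 changes belonged to PSMA4 and PSMA3. PSMA4 had 192 and 232 CPM in subconfluent Z1flag cells, 215 and 238 CPM in subconfluent Z2flag cells, 89.3 and 109 CPM in postconfluent Z1flag cells and 124 and 115 CPM in postconfluent Z2flag cells. PSMA3 was at 174, 188 (Z1flag), 159 and 179 CPM (Z2flag) before confluence and at 78.5, 91.2 (Z1flag), 114 and 98.3 CPM (Z2flag) after it. For both genes every postconfluent library was below every subconfluent one. The log2 change was -1.01 ± 0.14 for PSMA4 (edgeR adjusted p = 0.000226) and -0.88 ± 0.13 for PSMA3 (adjusted p = 0.000381). PSMA7 (-0.69 ± 0.17, adjusted p = 0.00616) also fell. It had the highest level per transcript length of all members in both states, 318 ± 40.8 and 198 ± 39.8 CPM per kb (SD, n = 4). PSMA2 (-0.62, adjusted p = 0.014) and PSMA5 (-0.38, adjusted p = 0.0436) passed more narrowly. The call for PSMA2 was lost without subconfluent Z2flag replicate 2 (-0.61, adjusted p = 0.0649) or postconfluent Z2flag replicate 2 (-0.47, adjusted p = 0.0631). That for PSMA5 was lost in 11 of 17 alternatives, among them leaving out subconfluent Z1flag replicate 2, postconfluent Z1flag replicate 1 or any 1 Z2flag library (log2 change -0.43 to -0.23, adjusted p up to 0.172).

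PSMA1 and PSMA6 were the members of the alpha rings that were not called. PSMA1 went from 37.1 and 43.5 to 31.3 and 38 CPM in Z1flag cells and from 37.8 and 39.1 to 52.6 and 41 CPM in Z2flag cells. PSMA6 was at 10.5, 9.04 (Z1flag), 10.8 and 10.1 CPM (Z2flag) before confluence and at 7.49, 9.03 (Z1flag), 11.7 and 8 CPM (Z2flag) after it. The states overlapped in both, and the log2 changes were 0.03 ± 0.14 and -0.16 ± 0.19. Their counts are uncertain, because protein-coding gene models on the same strand share 53.2% (PSMA1) and 81.0% (PSMA6) of the exons of the main transcript in GENCODE v29, and PSMA2 shares 52.5%. Reads in such exons can be set aside as belonging to more than 1 gene. Per length, the subconfluent levels of these 3 were 26.2 (PSMA1), 9.82 (PSMA6) and 7.73 (PSMA2) CPM per kb, where the other 4 tested PSMA genes had 20.5 to 318 CPM per kb. Whether this counting plays a part in the changes of these 3 genes was not tested. Among the core and cap subunits that share under 40% of exons in this way, 23 of 28 were called lower, with a median of -0.86. These 28 include PSMC1 and PSMD7, which share 82.15% and 50.42% of the main transcript's exons with genes on the opposite strand. Their counts are uncertain too if strand was ignored in counting, and the sources used here do not name the strand setting.

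The beta rings carry the active sites. All 7 constitutive PSMB genes had a negative log2 change, 4 were called lower, and the median was -0.74. PSMB6, the caspase-like site, and PSMB3, a structural subunit, had the lowest. PSMB6 had 63.5 and 81.3 CPM in subconfluent Z1flag cells, 72.1 and 83.6 CPM in subconfluent Z2flag cells, 21.8 and 41.2 CPM in postconfluent Z1flag cells and 43.1 and 35.5 CPM in postconfluent Z2flag cells. PSMB3 was at 172, 179 (Z1flag), 162 and 188 CPM (Z2flag) before confluence and at 65.2, 106 (Z1flag), 119.9 and 104 CPM (Z2flag) after it. The states did not overlap in either gene. The log2 changes were -1.09 ± 0.20 (adjusted p = 0.00128) and -0.84 ± 0.17 (adjusted p = 0.00204). PSMB2 (-0.77) and PSMB7, the trypsin-like site (-0.74), also fell. At the other end were PSMB5, the chymotrypsin-like site, and PSMB4. PSMB5 had 188 and 207 CPM in subconfluent Z1flag cells, 208 and 221 CPM in subconfluent Z2flag cells, 140.3 and 183 CPM in postconfluent Z1flag cells and 191 and 175 CPM in postconfluent Z2flag cells. PSMB4 went from 174 and 204 to 129 and 169 CPM in Z1flag cells and from 195 and 214 to 172 and 159 CPM in Z2flag cells. PSMB5 overlapped between states and PSMB4 did not, and neither change passed in edgeR (PSMB5 -0.26 ± 0.14, adjusted p = 0.135, PSMB4 -0.32 ± 0.14, adjusted p = 0.0763). PSMB1 (-0.35, adjusted p = 0.106) was not called either. Over the alternatives the log2 change ran from -0.32 to -0.07 for PSMB5, -0.40 to -0.14 for PSMB4 and -0.48 to -0.16 for PSMB1. Without postconfluent Z1flag replicate 2, which leaves only replicate 1 in that group, the changes were -0.32, -0.39 and -0.46. With the no-feature share as covariate these genes passed (edgeR adjusted p = 0.0364, 0.015 and 0.00839). The catalytic genes thus differed in size of change, from -1.09 for PSMB6 to -0.26 for PSMB5, and the difference between them was not tested.

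The ATPases of the cap fell without exception: 6 of 6 PSMC genes were called lower, with a median log2 change of -1.10, and each was called in all 17 alternatives. PSMC2 and PSMC5 had the lowest values. PSMC2 had 116 and 134 CPM in subconfluent Z1flag cells, 113 and 140.0 CPM in subconfluent Z2flag cells, 42.5 and 48.2 CPM in postconfluent Z1flag cells and 49.8 and 49.6 CPM in postconfluent Z2flag cells. PSMC5 was at 88.2, 102 (Z1flag), 90.4 and 105 CPM (Z2flag) before confluence and at 32.7, 44.9 (Z1flag), 50.3 and 42.9 CPM (Z2flag) after it. The highest postconfluent level lay below the lowest subconfluent one in both genes (49.8 against 113 CPM for PSMC2). PSMC2 changed by -1.41 ± 0.14 (adjusted p = 3.26e-05) and PSMC5 by -1.18 ± 0.15 (adjusted p = 0.000146). PSMC3 (-1.17) and PSMC1 (-1.03) lay between, PSMC1 with most of its main transcript's exons shared with a gene on the opposite strand. The smallest falls were those of PSMC6 and PSMC4. PSMC6 went from 175 and 216 to 97.5 and 96.4 CPM in Z1flag cells and from 181 and 217 to 162 and 105 CPM in Z2flag cells. PSMC4 had 135 and 138 CPM in subconfluent Z1flag cells, 126 and 153 CPM in subconfluent Z2flag cells, 47.6 and 74.1 CPM in postconfluent Z1flag cells and 99.2 and 76 CPM in postconfluent Z2flag cells. In PSMC6, postconfluent Z2flag replicate 1 (162 CPM) stood apart from the other 3 postconfluent libraries (96.4 to 104.6 CPM), and it was still below all subconfluent libraries. The log2 changes were -0.79 ± 0.17 (adjusted p = 0.0028) and -0.92 ± 0.17 (adjusted p = 0.00138).

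Of the 11 non-ATPase cap subunits 9 were called lower, and the median log2 change was -0.92. PSMD1, the large scaffold of the base, and PSMD12, a subunit of the lid, had the lowest values. PSMD1 had 259.8 and 273 CPM in subconfluent Z1flag cells, 236 and 274 CPM in subconfluent Z2flag cells, 75.5 and 97.5 CPM in postconfluent Z1flag cells and 129 and 97.2 CPM in postconfluent Z2flag cells. PSMD12 was at 149.8, 139.9 (Z1flag), 119.8 and 134 CPM (Z2flag) before confluence and at 47.6, 53.3 (Z1flag), 64.5 and 51.6 CPM (Z2flag) after it. No postconfluent library of either gene reached its subconfluent range. The log2 changes were -1.40 ± 0.16 (adjusted p = 6.36e-05) and -1.32 ± 0.14 (adjusted p = 4.26e-05). PSMD2, the other large scaffold, fell by 1.15 on the log2 scale, from 475 ± 44 to 215 ± 47.5 CPM (SD, n = 4). PSMD14, the deubiquitinase that strips chains from substrates, changed by -1.14, and PSMD4, a ubiquitin receptor, by -0.56. The lid subunits PSMD6 (-0.98), PSMD11 (-0.92) and PSMD3 (-0.82) fell as well. PSMD8 (-0.55, adjusted p = 0.0352) lost its call in 9 alternatives, including leaving out any 1 of the libraries other than postconfluent Z1flag replicate 2 and subconfluent Z2flag replicate 1 (log2 change -0.60 to -0.30, adjusted p up to 0.176).

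PSMD13 and PSMD7, both of the lid, were not called. PSMD13 went from 121 and 135 to 87 and 118 CPM in Z1flag cells and from 133 and 145 to 135 and 114 CPM in Z2flag cells. PSMD7 was at 153, 175 (Z1flag), 173 and 190.2 CPM (Z2flag) before confluence and at 105, 157 (Z1flag), 158 and 154 CPM (Z2flag) after it. Their states overlapped, PSMD7 with postconfluent Z1flag replicate 1 far below the other 3 (154 to 158 CPM). The log2 changes were -0.24 ± 0.15 (adjusted p = 0.192) and -0.27 ± 0.15 (adjusted p = 0.163). Over the alternatives the log2 change ran from -0.32 to -0.05 for PSMD13 and from -0.39 to -0.07 for PSMD7. Both were lowest without postconfluent Z1flag replicate 2, which leaves only replicate 1 in that group. With the no-feature share as covariate PSMD7 passed (-0.35, edgeR adjusted p = 0.0232). Over the whole cap 15 of 17 subunits were called lower with a median of -0.98, and over the core 9 of 14 with a median of -0.66. The core values include PSMA1, PSMA2 and PSMA6, whose counts are uncertain through same-strand gene models. No cap subunit shares exons of its main transcript in that way, which limits the comparison of cap and core. In each of the 4 postconfluent libraries the median of the cap was below that of the core (-1.48, -0.97, -0.76 and -0.94 against -0.995, -0.56, -0.40 and -0.67), a description of these lists without a test.

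**Figure D3:**
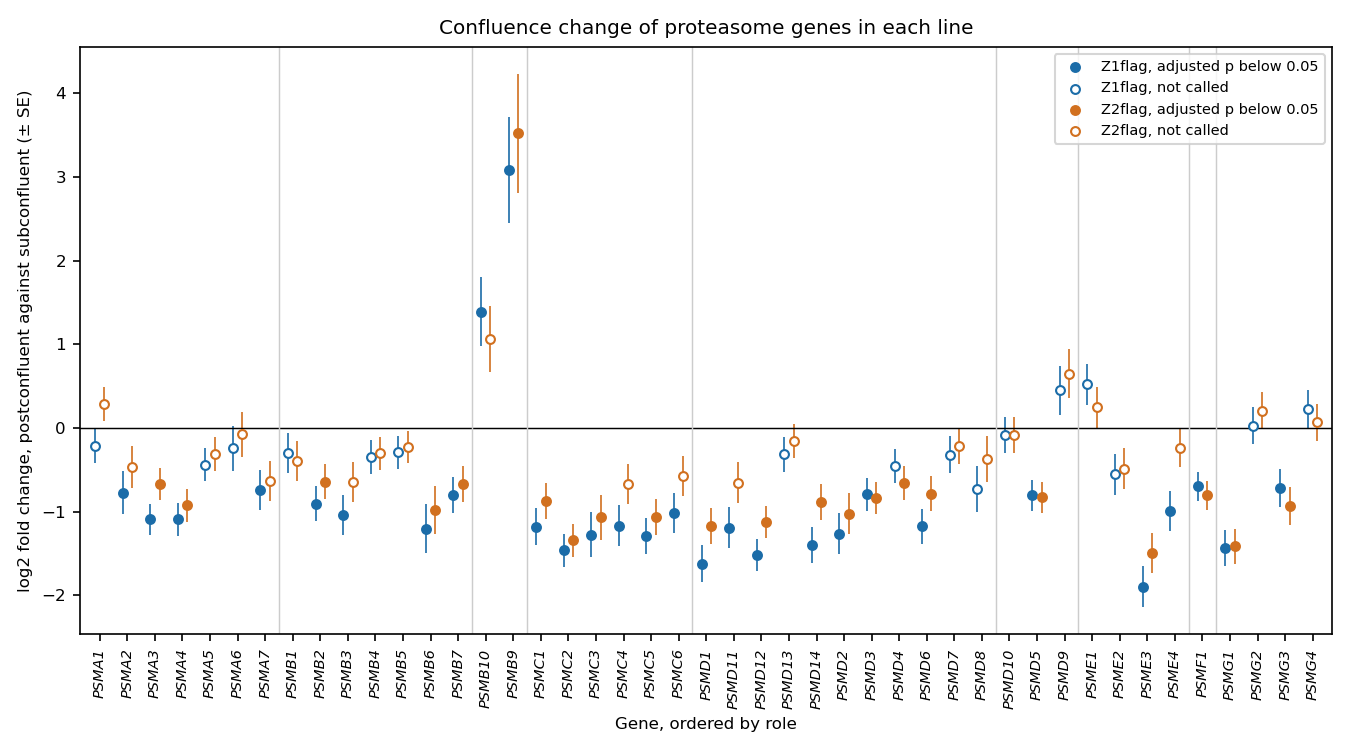
Points are log2 fold changes, postconfluent against subconfluent, in Z1flag and Z2flag cells with standard errors, ordered by role, filled where the edgeR adjusted p was below 0.05. Nearly all core and cap subunits lie below 0 in both lines, and PSMB9 and PSMB10 lie above.

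The immunoproteasome subunits moved in the other direction, at very low levels. PSMB9 had 0.18 and 0.153 CPM in subconfluent Z1flag cells, 0.0951 and 0.0281 CPM in subconfluent Z2flag cells, 1.78 and 1.07 CPM in postconfluent Z1flag cells and 0.496 and 1.08 CPM in postconfluent Z2flag cells. PSMB10 was at 0.766, 1.11 (Z1flag), 1.26 and 1.6 CPM (Z2flag) before confluence and at 2.16, 2.81 (Z1flag), 3.75 and 2.23 CPM (Z2flag) after it. All postconfluent libraries were above all subconfluent ones for both. PSMB9 (chromosome 6, 32844136 to 32859585, plus strand in GRCh38) rose by 3.30 ± 0.48 on the log2 scale (edgeR adjusted p = 0.000286) and PSMB10 (chromosome 16, 67934502 to 67937087, minus strand) by 1.23 ± 0.29 (adjusted p = 0.00463), and both calls held in the 16 alternatives in which the genes were tested. PSMB9 passed the filter on low counts only through the postconfluent libraries (9 to 47 counts each, against 1 to 4 before), so its call is a description and no support for a direction of the class. In counts this was 13 before and 95 after confluence for PSMB9, a depth-scaled ratio of 11.4 (95% exact interval 6.36 to 22.2, counting error only), and 156 and 217 for PSMB10, a ratio of 2.17 (1.76 to 2.68). PSMB8 (chromosome 6, 32840717 to 32844703, minus strand), which lies next to PSMB9 in the MHC region and overlaps it on the opposite strand, did not pass the filter. PSMB8 went from 0.0451 and 0 to 0.529 and 0.102 CPM in Z1flag cells and from 0.0713 and 0 to 0.276 and 0.12 CPM in Z2flag cells. Its 4 counts before and 23 after confluence gave a ratio of 8.97 (3.06 to 35.7). PSMB11, the beta subunit of the thymus, had 1 and 3 counts.

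Each immunoproteasome gene was also set against the catalytic gene whose place its product takes, a ratio that does not depend on library scaling. PSMB9 was 0.136% of PSMB9 and PSMB6 counts before confluence (95% Clopper-Pearson interval 0.0724 to 0.233%, counting error only) and 3.33% after it (2.71 to 4.06%). PSMB10 was 0.897% (0.762 to 1.05%) and 3.24% (2.83 to 3.69%) of its pair with PSMB7, and PSMB8 0.0153% (0.00416 to 0.0391%) and 0.168% (0.107 to 0.252%) of its pair with PSMB5. The constitutive member remained by far the more abundant of each pair in counts. The log2 ratio of PSMB9 to PSMB6 averaged -9.65 ± 1.33 before and -5.09 ± 1.16 after confluence (SD, n = 4), a difference of 4.57 that was 4.32 within Z1flag and 4.82 within Z2flag cells. For PSMB10 to PSMB7 the averages were -6.90 ± 0.38 and -4.93 ± 0.27, a difference of 1.97 (2.25 in Z1flag, 1.69 in Z2flag cells). The 2-sided exact permutation p was 0.0286 for each, the smallest that 4 against 4 libraries allow, and 0.0286 adjusted over the 2 pairs. Both genes of each pair already had states that did not overlap, in opposite directions. This p was therefore fixed before the test and is no support beyond the levels themselves. The ratio of PSMB8 to PSMB5 could not be formed in this way, since PSMB8 had a count of 0 in 2 libraries. With 1 CPM added to both genes it differed by 0.54, where the same addition gave 1.99 for PSMB9 to PSMB6 and 1.51 for PSMB10 to PSMB7.

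**Figure D4:**
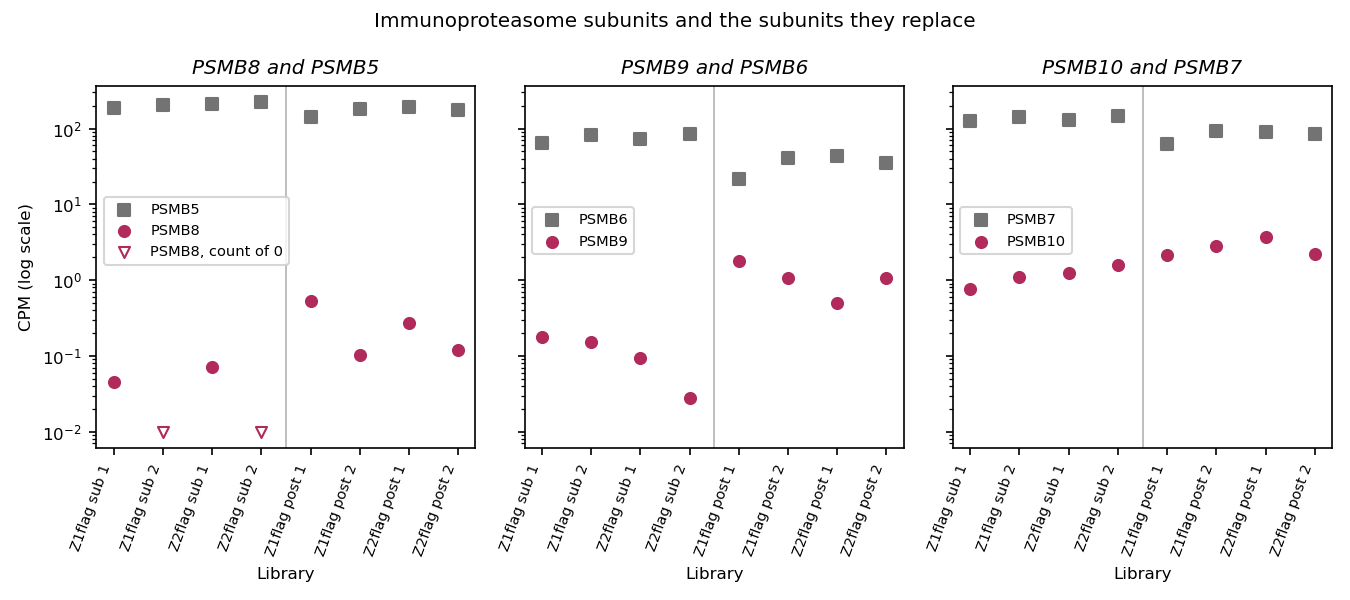
CPM on a log axis of PSMB8, PSMB9 and PSMB10 (circles) and of the constitutive subunits they replace (squares) in each library, with open triangles for a count of 0. PSMB9 lies at 0.0281 to 0.180 CPM before and 0.496 to 1.78 CPM after confluence, against 21.8 to 83.6 CPM for PSMB6.

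PSMB10 shares 45.3% of its main transcript's exons with a readthrough gene model on the same strand, so its level is uncertain. Because leukocytes express the immunoproteasome, a list of 14 leukocyte markers was read beside these genes. PTPRC, the general leukocyte marker, had 0 to 0.0382 CPM and MS4A1 and TYROBP had 0 counts in every library. Of the 8 markers tested, 4 (CD3D, CSF1R, ITGAM and FCER1G) were called higher and none lower, with a median log2 change of 1.21. CD3D passed the filter on low counts only through the postconfluent libraries (9 to 46 counts each, against 2 to 10 before). CD3E, which was not called, passed only through postconfluent Z1flag cells. The call for CD3D and the median are therefore descriptions and no support for a direction of the list. Of all genes tested, 27.8% were called higher and 27.5% lower. The summed level of the list was 34.7 to 63.0 CPM before and 49.6 to 71.3 CPM after confluence, most of it CD74, CD14 and LYZ.

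The activators did not move as a group. PSME1 and PSME2 encode the subunits of the interferon-inducible ring PA28 and lie 4394 bp apart on chromosome 14. PSME1 had 58 and 92.1 CPM in subconfluent Z1flag cells, 90 and 93.4 CPM in subconfluent Z2flag cells, 92.1 and 123 CPM in postconfluent Z1flag cells and 101 and 117 CPM in postconfluent Z2flag cells. PSME2 was at 48.7, 70.3 (Z1flag), 67 and 77 CPM (Z2flag) before confluence and at 34.8, 46.2 (Z1flag), 57.7 and 44.9 CPM (Z2flag) after it. PSME1 was lower before confluence in Z1flag replicate 1 than in the other 3 subconfluent libraries, and the states overlapped in both genes. PSME1 changed by 0.38 ± 0.17 and did not pass (adjusted p = 0.0847), while PSME2 fell by 0.52 ± 0.17 (adjusted p = 0.0252). The ratio of PSME1 to PSME2 CPM was 1.19 and 1.31 (Z1flag) and 1.34 and 1.21 (Z2flag) before confluence and 2.65 and 2.67 (Z1flag) and 1.75 and 2.60 (Z2flag) after it, with no overlap. Without subconfluent Z1flag replicate 2 or postconfluent Z1flag replicate 1, PSME1 passed as higher (0.56, adjusted p = 0.031 and 0.55, adjusted p = 0.0133), and PSME2 did not pass (-0.39, adjusted p = 0.119 and -0.36, adjusted p = 0.0756). PSME1 also passed as higher with a block for replicate number (0.39, adjusted p = 0.0481), and in 7 of 17 alternatives in all. PSME2 also missed the threshold without subconfluent (-0.48, adjusted p = 0.0907) or postconfluent (-0.39, adjusted p = 0.134) Z2flag replicate 2. By level per length, PSME1 went from place 19 to place 6 among the 50 members (82.8 ± 16.9 to 108 ± 14.2 CPM per kb, SD, n = 4).

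PSME3, which forms the nuclear PA28 ring, had the largest fall of all members. PSME3 had 142 and 126 CPM in subconfluent Z1flag cells, 108 and 126 CPM in subconfluent Z2flag cells, 27.8 and 43.9 CPM in postconfluent Z1flag cells and 45.5 and 37.4 CPM in postconfluent Z2flag cells. The highest postconfluent level (45.5 CPM) lay far below the lowest subconfluent one (108 CPM). The log2 change was -1.70 ± 0.17 (edgeR adjusted p = 4.03e-05), with -1.90 in Z1flag and -1.50 in Z2flag cells, and ranged from -1.84 to -1.47 over the alternatives. Per length it went from place 9 to place 24 among the members (125 ± 13.7 to 38.7 ± 8.05 CPM per kb, SD, n = 4). PSME3IP1, whose product binds PSME3, also fell (-0.57 ± 0.13, adjusted p = 0.00431). PSME4 encodes the single-chain activator PA200. PSME4 was at 268, 209.5 (Z1flag), 187 and 205 CPM (Z2flag) before confluence and at 119.8, 119.8 (Z1flag), 201 and 133 CPM (Z2flag) after it. Postconfluent Z2flag replicate 1 reached the subconfluent range and the other 3 postconfluent libraries did not. The change was -0.61 ± 0.16 (adjusted p = 0.0095) over both lines and -0.99 (adjusted p = 0.00802) in Z1flag cells, and it was not called in Z2flag cells (-0.23, adjusted p = 0.448). Without postconfluent Z2flag replicate 2 the call over both lines was lost (-0.43, adjusted p = 0.0566).

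**Figure D5:**
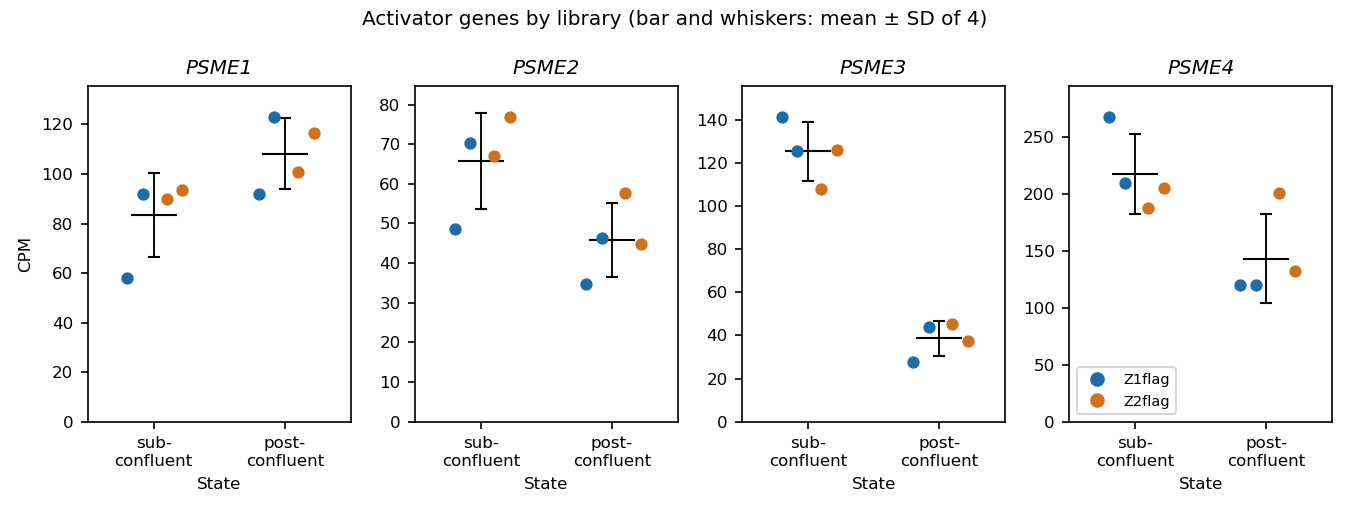
CPM of the 4 activator genes in each library (points, coloured by line), with the mean and SD of the 4 libraries of each state, on axes that start at 0. PSME3 shows the clear separation (108 to 142 against 27.8 to 45.5 CPM), and the states of PSME1 overlap.

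The inhibitor PSMF1 fell, with little spread within each state. PSMF1 went from 84.2 and 83.9 to 49.2 and 54.5 CPM in Z1flag cells and from 85.3 and 88.8 to 47 and 52.5 CPM in Z2flag cells. The log2 change was -0.75 ± 0.12 (adjusted p = 0.000618) and was called in both lines (-0.70 and -0.81).

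Assembly chaperones were divided within their own pairs. PSMG1 and PSMG2 form one dimer that gathers the alpha ring, PSMG3 and PSMG4 the other. PSMG1 had 52.9 and 60.9 CPM in subconfluent Z1flag cells, 58.4 and 64 CPM in subconfluent Z2flag cells, 17.7 and 24.3 CPM in postconfluent Z1flag cells and 21.6 and 24.2 CPM in postconfluent Z2flag cells. PSMG2 was at 83.5, 87.8 (Z1flag), 83.7 and 85.3 CPM (Z2flag) before confluence and at 69, 106 (Z1flag), 89.6 and 105 CPM (Z2flag) after it. PSMG1 fell by 1.43 ± 0.15 (adjusted p = 4.93e-05) with no overlap, and PSMG2 was not called (0.12 ± 0.16, adjusted p = 0.551). PSMG3 went from 16.9 and 21.7 to 10.9 and 12.6 CPM in Z1flag cells and from 22.3 and 24 to 13.3 and 11 CPM in Z2flag cells. PSMG4 had 24.6 and 28.3 CPM in subconfluent Z1flag cells, 34.2 and 28.5 CPM in subconfluent Z2flag cells, 25.7 and 36.2 CPM in postconfluent Z1flag cells and 32 and 33.7 CPM in postconfluent Z2flag cells. PSMG3 fell (-0.82 ± 0.16, adjusted p = 0.00182) and PSMG4 was not called (0.15 ± 0.16, adjusted p = 0.45), its states overlapping. Without postconfluent Z1flag replicate 1, PSMG2 (0.32, adjusted p = 0.0295) and PSMG4 (0.32, adjusted p = 0.0447) passed as higher. The difference between partners was not tested.

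The chaperones of the cap base, which bind its ATPases during assembly, went 3 ways. PSMD5 was at 77.7, 75.2 (Z1flag), 67.8 and 72.6 CPM (Z2flag) before confluence and at 47.9, 39.5 (Z1flag), 38.4 and 40.6 CPM (Z2flag) after it. PSMD9 went from 3.33 and 3.4 to 4.12 and 5.1 CPM in Z1flag cells and from 4.18 and 3.52 to 6.62 and 5.47 CPM in Z2flag cells. PSMD10 had 35.5 and 52.2 CPM in subconfluent Z1flag cells, 45.9 and 50.9 CPM in subconfluent Z2flag cells, 39.3 and 43.8 CPM in postconfluent Z1flag cells and 43.6 and 47.7 CPM in postconfluent Z2flag cells. PSMD5 fell in all postconfluent libraries (-0.82 ± 0.13, adjusted p = 0.000477), PSMD9 rose (0.55 ± 0.21, adjusted p = 0.0423) though its states overlapped, and PSMD10 was not called (-0.08 ± 0.15, adjusted p = 0.665). PSMD9 shares 43.8% of its main transcript's exons with same-strand gene models, so its counts are uncertain. Its call was lost in 7 of 17 alternatives, among them leaving out either subconfluent Z1flag replicate (0.52, adjusted p = 0.126 and 0.55, adjusted p = 0.109), either subconfluent Z2flag replicate (0.60, adjusted p = 0.109 and 0.48, adjusted p = 0.195) or postconfluent Z2flag replicate 1 (0.53, adjusted p = 0.0795). It was also lost with a block for replicate number (adjusted p = 0.0596). PSMC3IP, which is not a subunit, was not called (-0.65 ± 0.34, edgeR adjusted p = 0.128). It had 2.65 CPM in postconfluent Z1flag replicate 1, against 8.60 to 12.79 CPM in the other postconfluent libraries. Over the alternatives its log2 change ran from -1.21, without postconfluent Z1flag replicate 2, to -0.25.

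Within Z1flag cells alone 27 of the 45 tested proteasome genes were called lower (19.1% of all genes tested were) and 2 higher, PSMB9 and PSMB10 (21.3% were), with a median log2 change of -0.80. Within Z2flag cells 21 were called lower (19.3% of all genes) and 1 higher, PSMB9 (18.3% of all genes), with a median of -0.64. There were 20 genes called lower in both lines, a description only, since the same count was not made over all genes tested. The 7 called only in Z1flag cells had negative changes in Z2flag cells too, and so did PSMD4, called only in Z2flag cells, in Z1flag cells (-0.46, adjusted p = 0.1). PSMB10 was just short of the threshold in Z2flag cells (1.06, adjusted p = 0.0562). With a single line the counts rest on few libraries: in Z2flag cells 21 lower calls became 6 without subconfluent replicate 2, 12 without postconfluent replicate 1, 7 without postconfluent replicate 2 and 14 without subconfluent replicate 1.

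The difference between the lines in the confluence change was tested as an interaction, and none of the proteasome genes passed in edgeR or DESeq2, as was true of all 18240 genes (0.0%). Before adjustment, 1 of the 45 genes was below 0.05, where 902 of all 18240 genes were. It was PSME4, whose change was 0.76 ± 0.33 log2 units less negative in Z2flag cells (edgeR adjusted p = 0.799). A positive interaction is a smaller fall in Z2flag cells for genes that fell and a larger rise for genes that rose. PSMB9 is of the second kind (3.08 in Z1flag and 3.52 in Z2flag cells). The interaction was positive for 35 of the 45 genes, where it was for 8145 of all 18240 genes. Its median was 0.18 beside -0.07 over all genes. That median was 0.04 without postconfluent Z1flag replicate 1, 0.05 without subconfluent Z1flag replicate 2, 0.51 without postconfluent Z1flag replicate 2, 0.12 without subconfluent Z2flag replicate 1 and 0.34 without postconfluent Z2flag replicate 2, so its size rests on single libraries of both lines. Comparing the lines directly, no proteasome gene passed in subconfluent cells (median log2 difference, Z2flag minus Z1flag, 0.04) or in postconfluent cells (median 0.27), where again 0.0% of all genes passed in edgeR, none of the proteasome genes had an unadjusted p below 0.05, and DESeq2 called none. The postconfluent median was 0.07 without Z1flag replicate 1, 0.52 without Z1flag replicate 2, 0.17 without Z2flag replicate 1 and 0.41 without Z2flag replicate 2. Without Z1flag replicate 2, 6 of 46 proteasome genes (PSMB3, PSMB6, PSMC1, PSMC3, PSMC4 and PSMD8) and 1196 of all 19866 genes tested were called higher in postconfluent Z2flag cells, and 0 proteasome genes and 1056 of all genes lower.

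Promoter sequences from RefSeq (GRCh38.p14), 250 bases before to 50 after the first listed start, were found for 44 of the 50 members and searched on both strands for short motifs. They are shown for members that moved apart although they carry the same word. The core of the interferon response element, 2 GAAA words with 2 bases between them, stood in 6 of 42 promoters of proteasome genes (14.3%) and in 3.65% of all 27305 promoters. In 4 of the 6 the match was the identical word GAAAGCGAAA, found in 30 (0.11%) of all promoters. This word was picked after the matches had been seen. It is in capitals below, for PSME1 as its reverse complement after the start, each stretch written 5′ to 3′ on the strand of the gene.
PSMB10 (chr16:67936851-67936910, minus strand): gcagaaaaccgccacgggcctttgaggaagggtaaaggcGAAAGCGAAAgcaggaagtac
PSME2 (chr14:24146611-24146670, minus strand): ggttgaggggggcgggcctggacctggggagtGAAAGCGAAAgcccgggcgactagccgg
PSMG4 (chr6:3258887-3258946, plus strand): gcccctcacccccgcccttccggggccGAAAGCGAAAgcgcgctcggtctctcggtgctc
PSME1 (chr14:24136186-24136215, plus strand): agcgccctaccgcTTTCGCTTTCccttcgc
Of these 4, PSMB10 rose (1.23), PSME2 fell (-0.52), and PSME1 (0.38) and PSMG4 (0.15) were not called. The other members with the core, PSMA4 (-1.01) and PSMB4 (-0.32), had negative changes. The STAT motif TTCNNNGAA stood in 5 of 42 (11.9%, against 7.88% of all promoters). Of these genes, 4 were tested (PSMA2, PSMC4, PSMD3 and PSME3) and all 4 were called lower, with a median log2 change of -0.87. Beside them, 31 of the 45 tested proteasome genes and 27.5% of all genes tested were called lower.

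The antioxidant response core, TGACNNNGC or TGAGNNNGC, is the kind of element that NFE2L1, the transcription factor known for driving proteasome genes, binds with small MAF proteins. It stood in 20 of 42 proteasome promoters (47.6%) and in 29.4% of all promoters. All 20 genes were tested, and 14 of them were called lower and 2 higher (PSMB9 and PSMD9), with a median log2 change of -0.69, close to the -0.75 of all tested proteasome genes. The CCAAT box stood in 19 of 42 (45.2%, against 35.7%), and the E2F words TTTCCCGC or TTTGGCGC in 4 of 42 (9.52%, against 2.31%). Stretches of 3 genes that fell are shown, with matches to the antioxidant response core in capitals in each and 1 CCAAT box in capitals in PSMB3.
PSMD12 (chr17:67366698-67366757, minus strand): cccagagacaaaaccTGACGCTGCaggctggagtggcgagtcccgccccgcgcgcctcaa
PSMG1 (chr21:39183582-39183651, minus strand): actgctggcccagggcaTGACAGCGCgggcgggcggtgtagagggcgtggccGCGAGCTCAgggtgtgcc
PSMB3 (chr17:38752621-38752700, plus strand): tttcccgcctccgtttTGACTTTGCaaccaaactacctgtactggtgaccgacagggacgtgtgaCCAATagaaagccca
A match of letters is a description of the window and not evidence of binding.

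Genes around the proteasome were read from lists chosen by function. Of all genes tested, 27.8% were called higher and 27.5% lower, the shares to set beside the counts of each list. Of 10 further cap and assembly factors, 6 were called lower and 1 higher, with a median log2 change of -0.69. POMP, the maturation factor of the core (-0.98 ± 0.16, adjusted p = 0.000552), UBE3C, a ubiquitin ligase on the proteasome (-0.73 ± 0.13, adjusted p = 0.000883), and PAAF1, which binds cap ATPases (-0.92 ± 0.17, adjusted p = 0.0012), fell. AKIRIN2, which brings proteasomes into the nucleus, rose (1.05 ± 0.17, adjusted p = 0.000629). It had 17.2 to 18.9 CPM before and 25.9 to 50.2 CPM after confluence.

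Of the 7 genes of the NFE2L1 pathway, 2 were called higher and 2 lower, with a median of -0.19. These counts are near the shares over all genes tested, 27.8% higher and 27.5% lower. NFE2L1 had 280.5 to 320.4 CPM before and 444 to 533 CPM after confluence and rose (0.65 ± 0.14, adjusted p = 0.00268), and so did SYVN1, a ubiquitin ligase of the endoplasmic reticulum that acts on it (1.38 ± 0.18, adjusted p = 0.00016). DDI2, the protease that cuts NFE2L1 into its active form (-0.45 ± 0.16, adjusted p = 0.0329), and the related factor NFE2L3 (-0.58 ± 0.20, adjusted p = 0.0285) fell. The states overlapped in both genes. NFE2L3 had 99.8 CPM in postconfluent Z2flag replicate 1, against 83.3 to 102.4 CPM before confluence. It was not called in Z2flag cells (-0.22, edgeR adjusted p = 0.545). DDI2 had 94.9 CPM in postconfluent Z1flag replicate 1, against 89.8 to 98.7 CPM before confluence, and was called in neither line alone. The NFE2L1 transcript rose while the median change of the proteasome genes was negative. A link between them was not tested.

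Of 6 genes for ubiquitin and its activating enzymes, 4 were called higher and 1 lower (median 0.58). For this list and the next, the shares over all genes tested were 27.8% higher and 27.5% lower. RPS27A, which encodes ubiquitin fused to a ribosomal protein, rose (1.03 ± 0.14, adjusted p = 0.000217), though coding sequence shared with other ubiquitin genes makes its count less certain. UBA1, the main activating enzyme, fell (-0.67 ± 0.15, adjusted p = 0.00351). Of 14 shuttle and segregase genes 13 were tested, with 3 called higher, 6 lower and a median of -0.39. The proteasome-binding zinc finger genes ZFAND2B (0.94 ± 0.15, adjusted p = 0.000611), ZFAND5 (0.99 ± 0.17, adjusted p = 0.000825) and ZFAND2A (1.22 ± 0.26, adjusted p = 0.00265) were the 3 that rose. UBQLN4 (-0.88 ± 0.15, adjusted p = 0.000703), FAF2 (-0.58 ± 0.15, adjusted p = 0.00719) and UFD1 (-0.50 ± 0.14, adjusted p = 0.0121) fell.

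Genes of interferon signalling and antigen processing, downstream of the peptides the proteasome makes, rose widely. Of 14, 12 were called higher (27.8% of all genes tested were) and 1 lower (27.5%), with a median log2 change of 1.16. HLA-B (3.25 ± 0.21, adjusted p = 5.83e-06), TAP1, the peptide transporter (2.15 ± 0.21, adjusted p = 3.14e-05), and HLA-C (1.66 ± 0.18, adjusted p = 4.99e-05) had the smallest adjusted p, although near-identical HLA genes can share reads. TAP1 stood at 1.52 to 2.02 CPM before and 6.62 to 8.49 CPM after confluence. PSMB9 lies beside TAP1 in the MHC region. Of the interferon-inducible proteasome genes elsewhere, PSMB10 rose (1.23) and PSME2 fell (-0.52), a call lost in 6 of 17 alternatives. PSME1 (0.38) was not called, though 7 of 17 alternatives called it higher. Whether interferon signalling plays a part in these changes was not tested.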

How the data were processed

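The deposited values were HTSeq counts per Ensembl gene from 8 stranded, rRNA-depleted, paired-end RNA-seq libraries, per the labels. Alignment to hg38 is listed with STAR (version 2.5.2b), and SAMtools and HTSeq are also listed, in the submitters' processing notes. The sources used here name neither the annotation nor the strand setting of the counting. Of 58302 IDs, 58039 are in GENCODE v29, which gave types, positions and exons, and 57532 have a symbol in the name table. Groups came from the labels.

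Counts were analysed with edgeR 4.0.16 (R 4.3.3), using TMM scaling, filterByExpr by group (minimum count 10, minimum total 15), a robust quasi-likelihood fit of 4 group means (4 residual degrees of freedom), and Benjamini-Hochberg adjustment over 18240 genes at 0.05. The standard error is the size of the log2 change divided by the square root of F. Log2 CPM used a prior count of 2. CPM per kb used the median length of the principal transcripts. The ratio tests were planned over 3 pairs, and 2 could be formed. Lists, members and the naming rule (all members, with values by library for the small classes and for the 2 highest and 2 lowest changes of the others, and up to 3 genes per direction of each list) were chosen with earlier results of these data known. PSME3IP1 was moved from a list to the members because its symbol matches the rule. Besides the pathway lists named in the results, marker lists of other cell types were read. Of 16 epithelial markers 15 were tested (10 higher, 2 lower), where 27.8% of all genes tested were higher and 27.5% lower. Those called higher include KRT20, LGALS4 and SI, which passed the filter on low counts only through postconfluent libraries. Of 8 hepatocyte markers 7 were higher and none lower, and of 8 fibroblast markers 5 were tested (1 higher, 3 lower). Python 3.11.15, pandas 2.3.3 and matplotlib 3.10.9 made the tables and figures. Alternatives were RLE and upper-quartile scaling, 2 other filters, DESeq2 1.42.0, limma voom (limma 3.58.1), a replicate block, the no-feature share as covariate, fits of only the libraries compared, and leaving out libraries. Values of some genes of the ubiquitin and interferon lists are not reported here, and the lists' counts include them.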

Additional observations from a re-analysis of the deposited data

Results flagged for a closer look

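In 4 of 94 sets of 4 libraries (a member in a state), 1 library stood apart from the other 3 by more than Dixon's critical value at the 95% level, where chance gives about 1 in 20. PSMC6 had 162.5 CPM in postconfluent Z2flag replicate 1 against 96.4 to 104.6 CPM. PSME4 had 200.8 CPM in the same library against 119.8 to 132.6 CPM. PSMD7 had 105.4 CPM in postconfluent Z1flag replicate 1 against 154.5 to 157.9 CPM. PSME1 had 57.95 CPM in subconfluent Z1flag replicate 1 against 89.95 to 93.42 CPM. Leaving out the library that stood apart, PSMC6 and PSME4 were still called lower over both lines, and PSMD7 and PSME1 were still not called.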

How the results depend on the processing

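Counts of proteasome genes called kept within 1.5 times under most alternatives, and the 26 lower calls that held in every alternative include all cap ATPases. Over both lines, lower calls numbered 26 to 36 and higher calls 2 to 6 when 1 library was left out, the 6 without postconfluent Z1flag replicate 1 (PSMB9, PSMB10, PSMD9, PSME1, PSMG2 and PSMG4). In Z1flag cells (2 higher, 27 lower) leaving out 1 library gave 1 to 3 higher and 19 to 36 lower calls. Higher calls were 0 with a stricter filter (2 libraries with 5 CPM or more), which removes PSMB9 and PSMB10, and 1 in a fit of only the libraries compared. Without both Z1flag libraries of highest no-feature share, Z1flag cells had 0 higher and 16 lower calls. In Z2flag cells (1 higher, 21 lower) leaving out 1 library gave 1 to 3 higher and 6 to 25 lower calls. Higher calls there were 2 with RLE scaling, with the no-feature share as covariate, with only the libraries compared or without both Z1flag libraries, 3 with upper-quartile scaling and 0 with the stricter filter. Proteasome genes higher in postconfluent Z2flag than Z1flag cells numbered 0 to 6 when 1 library was left out. The cause of these shifts was not tested.

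The log2 change over both lines of 4 genes that were not called turned sign. It was -0.024 for PSMA1 without a filter, -0.0069 with the no-feature covariate, and -0.046 to 0.17 when leaving out 1 library, with negative values in 3 cases. PSMA6 turned to 0.025 with upper-quartile scaling, 0.00092 without both Z1flag libraries and 0.013 at most when leaving out 1 library (-0.27 at least). PSMD10 turned to 0.11 with upper-quartile scaling, 0.037 with the stricter filter, and ran from -0.23 to 0.059 when leaving out 1 library. PSMG2 ran from -0.014 to 0.32 when leaving out 1 library. In Z2flag cells PSME4 ran from -0.48 to 0.12 when leaving out 1 library. The log2 ratio difference of PSMB9 to PSMB6 ran from 3.94 to 5.02 and that of PSMB10 to PSMB7 from 1.81 to 2.09 when 1 library was left out, and they were 1.99 and 1.51 with 1 CPM added.

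Replicate numbers did not pair the samples: the correlation of deviations between same-numbered libraries ran from -0.18 to 0.178. With a replicate block, PSMD9 was no longer called over both lines (adjusted p = 0.0596) and PSME1 was called higher (adjusted p = 0.0481). The counts were 3 higher and 31 lower over both lines, 2 and 27 in Z1flag cells, 1 and 21 in Z2flag cells and 0 for the interaction. A fit of only the libraries compared gives nothing new for comparisons in which all 8 libraries enter. With 4 to 23 counts, PSMB8 limits what can be said of it, and intervals cover counting error only.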
